A study of Mus musculus with 16 samples.

Results

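The Wnt genes and the genes that receive or limit Wnt signals were followed in the mouse trigeminal ganglion, the cluster of sensory neurons that serves the face. Members were all genes whose symbol names a Wnt ligand, a Frizzled receptor, a co-receptor (Lrp5, Lrp6), an R-spondin, an inhibitor of the Sfrp or Dkk families, an Axin, or the nuclear factors Lef1 and Tcf7. These were 47 genes of the 25719 listed in each library. RNA was sequenced from 16 single ganglia in 4 groups of 4 libraries. The groups were wild-type (WT) mice and Nogo-A knockout (KO) mice, each on embryonic day 14 (E14) and on postnatal day 25 (P25). Nogo-A, the long product of Rtn4, limits the outgrowth of neurites, and the labels name no other allele or agent, no strain and no treatment.

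Wnt ligands are secreted lipid-modified proteins that bind a Frizzled together with Lrp5 or Lrp6. In the canonical branch, binding disables a complex built on Axin that otherwise destroys beta-catenin, and beta-catenin then acts with Lef1 and Tcf7 on target genes such as Axin2. R-spondins keep Frizzleds at the cell surface, whereas Sfrp proteins bind Wnts and Dkk proteins mostly block the co-receptors. In the embryo, Wnt signals act on the neural crest and placode cells that form cranial sensory ganglia.

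Totals ran from 15532373 to 29562379 counts per library. All 14 sensory neuron markers were present in each group, with a summed level of 15460 to 24138 CPM, the counts scaled to a common library total with TMM factors. Rtn4 cannot check the genotype labels here, because its gene total adds up all transcripts, Nogo-B and Nogo-C included. It ranged from 144 to 521 CPM in E14 WT and from 236 to 405 CPM in E14 KO, and from 406 to 542 CPM in P25 WT and from 345 to 384 CPM in P25 KO. The names of E14 WT replicates 2 and 4, and of E14 KO replicates 1 and 3, differ only in the letter R or L, so each pair may be the right and left ganglion of 1 animal. The E14 libraries were uneven: WT replicate 2 was the highest of the 8 for 18 of the 38 tested members and the lowest for 6. KO replicate 1 was the lowest for 11 and KO replicate 2 for 7. Such counts were not made over all genes.

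Of the 47 members, 38 passed the filter on low counts and were tested. All 10 Frizzleds, 4 R-spondins, 2 co-receptors, 2 Axins and 2 nuclear factors were among them, with 12 of 19 Wnt ligands and 6 of 8 secreted inhibitors. The filter passed 32 members through both stages, 4 through E14 alone (Dkk2, Rspo3, Rspo4 and Wnt7b) and 2 through P25 alone (Wnt16 and Wnt3a). The 9 others were close to silent at this depth. Wnt1 had 0 counts over all 16 libraries, Dkk4 and Wnt8a 2 each, Wnt8b 4, Dkk1 5, Wnt10b 6, Wnt9b 12, Wnt2 24 and Wnt10a 49. A total of 0 counts allows up to 0.0382 CPM over the E14 WT group and 0.0293 CPM over the P25 WT group (3 counts over the group, counting error only).

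Wnt6 and Wnt3 moved furthest in opposite directions among the ligands at 1 CPM or more, and Axin2, the common feedback target, was not called. The 250 bases before their start sites are shown for that contrast, from RefSeq on GRCm38.p6, plus strand, with each CG dinucleotide in capitals. They lie at chr1:74771642-74771891, chr11:103773925-103774174 and chr11:108920099-108920348. The RefSeq start of Wnt3 lies 25 bases inside the GENCODE gene, so the last 25 bases of its stretch do too; the other two starts are the same in both.
Wnt6: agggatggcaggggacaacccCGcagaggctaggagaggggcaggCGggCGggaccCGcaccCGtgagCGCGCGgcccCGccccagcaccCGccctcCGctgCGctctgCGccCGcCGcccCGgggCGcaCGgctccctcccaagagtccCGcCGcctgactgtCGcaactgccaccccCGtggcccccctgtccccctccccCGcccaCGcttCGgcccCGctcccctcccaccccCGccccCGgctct
Wnt3: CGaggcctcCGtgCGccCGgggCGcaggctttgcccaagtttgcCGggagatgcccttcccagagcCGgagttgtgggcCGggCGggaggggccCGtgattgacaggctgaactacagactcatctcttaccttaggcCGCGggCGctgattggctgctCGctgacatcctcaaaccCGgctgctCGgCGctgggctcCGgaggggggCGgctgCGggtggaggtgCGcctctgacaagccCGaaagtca
Axin2: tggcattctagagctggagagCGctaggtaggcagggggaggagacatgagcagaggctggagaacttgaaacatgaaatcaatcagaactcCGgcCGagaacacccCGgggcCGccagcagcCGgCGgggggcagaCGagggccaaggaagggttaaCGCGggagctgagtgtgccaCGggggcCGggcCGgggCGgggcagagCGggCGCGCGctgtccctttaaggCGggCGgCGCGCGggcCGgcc
The shown stretches hold 28, 22 and 24 CG dinucleotides. In the full RefSeq windows of 300 bases (250 before to 50 after a start), the 37 windows of 30 members had a median of 26 CG dinucleotides, against 7 over all 32851 windows. The letters CTTTGAA or CTTTGAT, searched on both strands as forms of the Lef1 and Tcf7 motif, occurred in 8.651% of all windows and in 3 member windows, those of Wnt5b, Wnt11 and Dkk1. No match says only that these letters are not in the window.

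The genes lie apart in the genome except for 4 neighbouring Wnt pairs. Wnt6 (chromosome 1, 74771892 to 74785322, GRCm38) is followed after 6193 bases by Wnt10a. Wnt9b precedes Wnt3 (chromosome 11, 103774150 to 103817957) by 24328 bases, Wnt3a precedes Wnt9a by 16175 bases, and Wnt10b precedes Wnt1 by 11706 bases. Wnt10a, the neighbour of Wnt6, stayed under the filter with 4 counts in E14 WT, 28 in P25 WT, 0 in E14 KO and 17 in P25 KO. With no filter, edgeR called it higher at P25 in KO (adjusted p = 0.0114) and not in WT (adjusted p = 0.0945), and DESeq2 did likewise (adjusted p = 0.0126 and 0.129).

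Levels of different genes are compared here only per length, as CPM per kb of transcript. Sfrp5, a secreted Wnt-binding inhibitor, had the highest level of all members in each group, from 126 CPM per kb in E14 WT to 186 CPM per kb in P25 WT. Summed over the 19 Wnt ligands, the level was 8.66 ± 2.44 CPM per kb (SD, n = 4) in E14 WT and 8.70 ± 1.00 in E14 KO, against 24.6 ± 1.10 in P25 WT and 23.7 ± 1.47 in P25 KO. The 4 R-spondins together had 2.81 ± 0.68 CPM per kb in E14 WT and 13.2 ± 1.49 in P25 WT. The 10 Frizzleds moved the other way, from 56.5 ± 5.43 CPM per kb in E14 WT to 19.4 ± 2.19 in P25 WT. For these 3 sums no P25 library overlapped an E14 library in either genotype. The sum of the secreted inhibitors overlapped between stages and rested on Sfrp5.

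**Figure D1:**
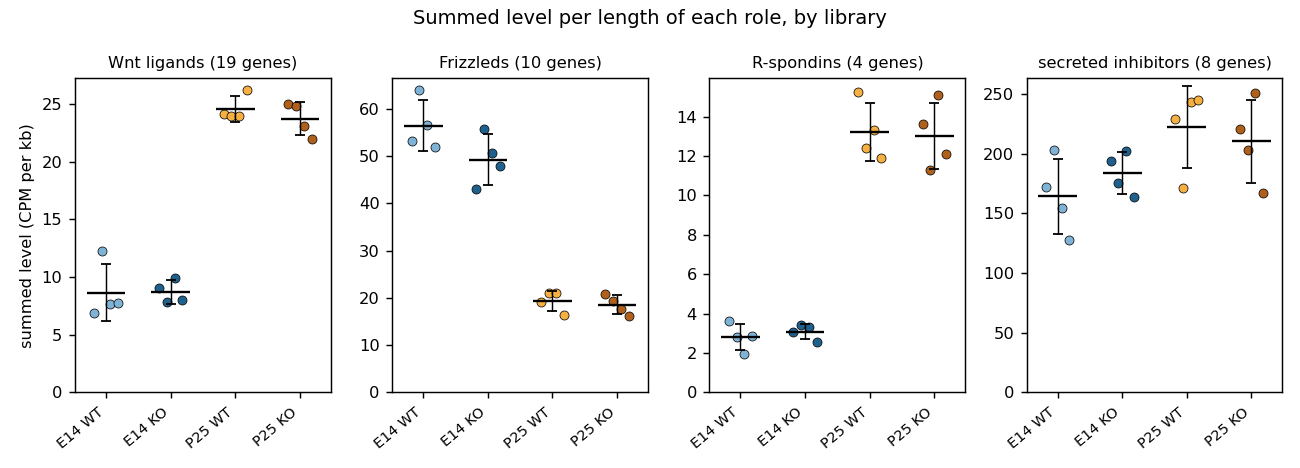
Summed level per length (CPM per kb) of the Wnt ligands, Frizzleds, R-spondins and secreted inhibitors in each library. Points are libraries, bars the mean and SD of 4; the Wnt ligand sum was 8.66 in E14 WT and 24.6 in P25 WT, and the Frizzled sum 56.5 and 19.4.

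The first comparison asked how the members differed between the E14 and the P25 ganglion within each genotype. In WT, 28 of 38 tested members were called at an edgeR adjusted p under 0.05: 11 were higher at P25 and 17 lower. In KO, 13 were higher and 14 lower. Stage changed much of the transcriptome: 29.7% of all tested genes were called higher and 29.8% lower in WT, and 30.6% and 29.2% in KO. Against these, the members' shares in WT were 28.9% higher and 44.7% lower, and in KO 34.2% higher and 36.8% lower. The median log2 fold change of the members was -0.24 in WT and -0.39 in KO, beside 0.0003 and 0.0107 over all tested genes. Both genotypes called 10 members higher (90.9% of the WT calls and 76.9% of the KO calls) and 14 lower (82.4% and 100%). The same shares over all tested genes were not computed, so this overlap is not read as a trait of the members. Over the 32 members that passed the filter through both stages, 9 were called higher and 14 lower in WT, and 11 and 11 in KO. The median log2 fold change of these was -0.24 in WT and -0.16 in KO. Without E14 WT replicate 2, WT had 12 calls higher and 16 lower; Fzd10 and Rspo4 were lost, and Fzd3 and Tcf7 gained.

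Several summed cell type markers differed strongly between the stages. In bulk RNA, fewer cells of a type and less RNA per cell cannot be told apart. In proportion, the sums of sensory neuron, Schwann cell precursor, endothelial, mural cell and skeletal muscle markers moved less in WT than those of the other lists. Sensory neuron markers had mean sums of 17494 CPM at E14 and 21371 CPM at P25, with 7 called higher and 4 lower. Schwann cell precursor markers had 2151 and 1615 CPM (2 higher, 3 lower). Endothelial markers had 248 and 165 CPM (2 higher, 4 lower). Mural cell markers had 101 and 212 CPM (4 higher, 1 lower). Skeletal muscle markers had 8.82 and 5.35 CPM (1 higher, 3 lower). The lists that follow moved more. Summed markers of myelinating Schwann cells (9 genes) were 440 to 611 CPM in E14 WT and 28496 to 33617 CPM in P25 WT, with 9 of 9 called higher. Satellite glia markers (9 genes) were summed at 1055 to 1413 CPM in E14 WT and at 5921 to 8909 CPM in P25 WT, with 7 called higher and 0 lower. Fibroblast and meningeal markers (10 genes) were divided, with 4 called higher and 2 lower beside sums of 1014 to 1473 CPM and 2711 to 3514 CPM. Surface epithelium markers (8 genes, 4 of them tested) had 3 called higher and 1 lower, with sums of 44.0 to 68.2 CPM in E14 WT and 214 to 332 CPM in P25 WT. Macrophage markers (9 genes) had 7 called higher and 0 lower, with 57.4 to 87.6 CPM and 199 to 206 CPM. Cell cycle markers (8 genes) were 115 to 166 CPM in E14 WT and 31.0 to 38.1 CPM in P25 WT, with 7 of 8 called lower. Erythroid markers (6 genes) were 641 to 1108 CPM in E14 WT and 41.1 to 93.1 CPM in P25 WT, with 6 of 6 called lower. Cartilage markers were divided, with 3 of 5 tested called higher and 2 lower, although their sum (6 genes, Matn1 at 0 at E14) was 184 to 372 CPM in E14 WT and 21.0 to 25.8 CPM in P25 WT. Oligodendrocyte and astrocyte markers (7 genes, with Mobp and Olig2 at 0 at E14) had 6 called higher. Their sum was 2.38 to 13.9 CPM in E14 WT and 9.55 to 283 CPM in P25 WT, the lowest in P25 WT replicate 3. The part of these shifts in the member changes was not tested.

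Among the Wnt ligands, 7 rose in WT (Wnt2b, Wnt3a, Wnt4, Wnt5a, Wnt6, Wnt7a and Wnt16), 1 fell (Wnt3) and 4 were not called (Wnt5b, Wnt7b, Wnt9a and Wnt11). In KO the same 7 rose with Wnt11, and Wnt3 fell. Of the 12 tested ligands, 58.3% were higher and 8.33% lower in WT, beside 29.7% and 29.8% of all tested genes. The KO shares were 66.7% and 8.33%, beside 30.6% and 29.2%. Wnt3a and Wnt16 are in these counts but passed the low-count filter through P25 alone, so a rise was built into their being tested. Wnt6, a ligand known from epithelia and neural crest induction, was measured at 0.321, 1.83, 0.284 and 1.49 CPM in the 4 E14 WT libraries and at 14.0, 14.4, 14.4 and 21.6 CPM in P25 WT. In KO it was at 1.26, 0.560, 0.932 and 0.762 CPM and then at 16.6, 15.9, 16.3 and 11.7 CPM. All P25 libraries lay above all E14 libraries. The log2 fold change was 4.04 in WT (SE 0.42, edgeR adjusted p = 7.13e-08) and 4.12 in KO (SE 0.42, edgeR adjusted p = 6.81e-08).

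Wnt7a, which is known for effects on axon and synapse remodelling, was at 1.38, 2.13, 1.14 and 0.745 CPM in E14 WT and at 11.3, 9.23, 10.98 and 10.4 CPM in P25 WT. KO libraries held 1.52, 0.467, 0.874 and 0.905 CPM at E14 and 9.92, 8.23, 9.45 and 8.53 CPM at P25. The stages did not overlap in either genotype, and the log2 fold changes were 2.97 in WT and 3.28 in KO. Wnt5a, the main ligand of the branch that works without beta-catenin, rose by a log2 fold change of 2.60 in WT and 2.83 in KO, from means of 3.45 and 2.85 CPM. Wnt2b rose by 2.49 and 3.11, and Wnt4 by 1.49 and 2.41. The Wnt4 call in WT was lost without P25 WT replicate 4 (log2 fold change 1.20, edgeR adjusted p = 0.0522).

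Wnt16 and Wnt3a were near the floor at E14 and were tested only because they passed the low-count filter at P25, so a higher value there was built into their being tested. Wnt16 had 1 count over the 4 E14 libraries and 51 over the 4 P25 libraries in each genotype. The scaled ratio was 39.2 in WT (exact 95% counting interval 6.72 to 1578) and 40.7 in KO (6.98 to 1637). Wnt3a had 3 counts in E14 KO and 53 in P25 KO, a ratio of 14.1 (4.56 to 70.5). These intervals cover counting error only. Wnt16 was called in each of the 22 alternatives that tested it and Wnt3a in each of 19. In the other 2 and 5 the filter left them out. Where such a filter was used, being tested again rested on the P25 values, so those calls are no separate support.

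Wnt3 was the one ligand that fell in both genotypes. Its E14 WT libraries held 6.10, 7.56, 7.11 and 5.65 CPM and its P25 WT libraries 0.523, 0.421, 0.215 and 1.00 CPM. The KO values were 9.10, 8.73, 7.69 and 8.33 CPM at E14 and 0.494, 0.129, 0.548 and 1.07 CPM at P25. Each E14 library was above each P25 library, with log2 fold changes of -3.60 in WT (SE 0.42) and -3.89 in KO (SE 0.42).

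The leading ligand differed by stage. Per length, Wnt9a had the highest mean in E14 WT (2.59 CPM per kb) with Wnt3 next (2.15), but without E14 WT replicate 2 they were nearly level (2.06 and 2.04). Wnt3 and Wnt9a were also nearly level in E14 KO (2.75 and 2.74), and Wnt6 led at P25 (7.78 in WT and 7.30 in KO), followed by Wnt2b (5.06 and 5.21). Wnt9a itself was at 6.05, 13.9, 8.59 and 5.87 CPM in E14 WT and at 7.25, 5.82, 7.03 and 8.34 CPM in P25 WT. Among KO ganglia it stood at 7.96, 8.68, 11.1 and 8.71 CPM at E14 and at 5.52, 8.23, 5.61 and 6.23 CPM at P25. The stages overlapped and it was not called in WT (log2 fold change -0.27, edgeR adjusted p = 0.378; 0.06 without E14 WT replicate 2). In KO it was at -0.51 (edgeR adjusted p = 0.0932).

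**Figure D2:**
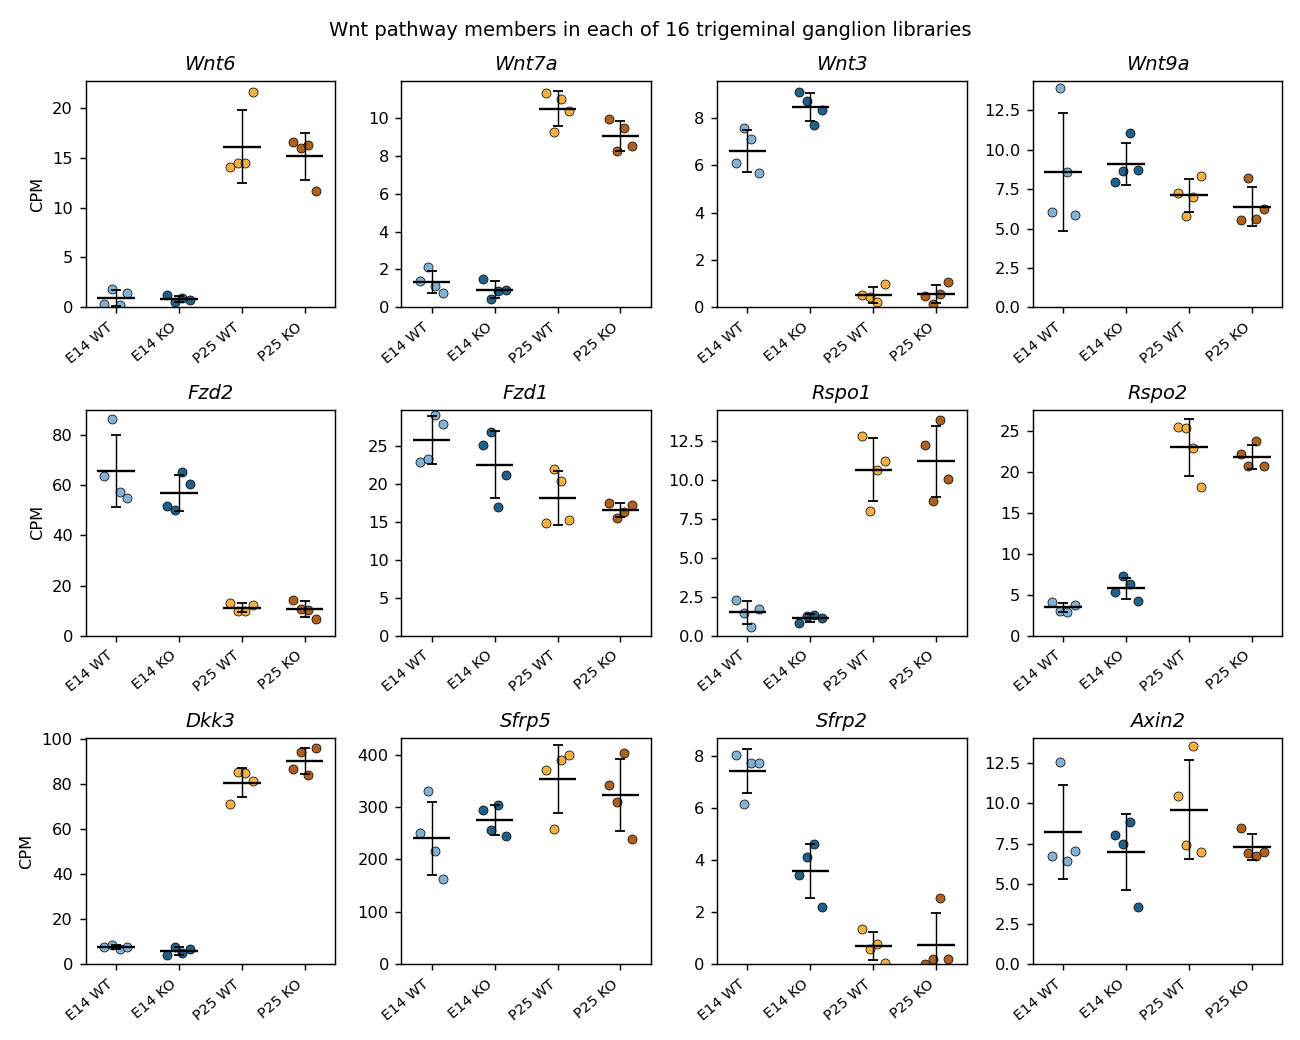
Level (CPM) of 12 members in each library, with the mean and SD of 4 libraries per group; the axes differ between panels and start at 0. Wnt6, Wnt7a, Rspo1, Rspo2 and Dkk3 are higher in each P25 library than in each E14 library, Wnt3 and Fzd2 are lower, and Wnt9a and Axin2 overlap.

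Frizzleds, the transmembrane receptors for Wnts, fell or were not called. In WT 7 of 10 fell (Fzd1, Fzd2, Fzd4, Fzd7, Fzd8, Fzd9 and Fzd10) and in KO 5 did (Fzd1, Fzd2, Fzd7, Fzd8 and Fzd9). Over all tested genes, 29.8% were called lower in WT and 29.2% in KO. Fzd2 was at 63.6, 86.1, 57.3 and 54.9 CPM in E14 WT and at 13.0, 9.82, 9.83 and 12.2 CPM in P25 WT. In KO it was at 51.6, 50.1, 65.4 and 60.5 CPM and then at 14.4, 10.9, 10.5 and 6.83 CPM. The groups were far apart, with log2 fold changes of -2.54 in WT (SE 0.22) and -2.42 in KO (SE 0.22).

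Fzd9 fell by 2.07 on the log2 scale in WT and by 1.79 in KO, Fzd8 by 1.84 and 2.06, and Fzd7 by 1.59 and 1.68. Fzd2, with the highest level per length of the Frizzleds at E14 (17.9 CPM per kb in WT), was passed at P25 by Fzd1 (4.33 CPM per kb in WT), which lay next to Fzd7 (4.20). Fzd1 was at 22.9, 23.3, 29.1 and 28.0 CPM in E14 WT and at 14.9, 22.0, 20.4 and 15.3 CPM in P25 WT. KO libraries held 25.2, 26.9, 17.0 and 21.1 CPM at E14 and 17.5, 15.47, 16.4 and 17.2 CPM at P25. Its fall was small, -0.51 in WT (edgeR adjusted p = 0.0226) and -0.44 in KO (edgeR adjusted p = 0.0456). It was lost under 6 of 24 alternatives in WT and 17 of 24 in KO. Fzd4 and Fzd10 were called in WT alone, and the test of the difference between genotypes called neither.

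Of the co-receptors, Lrp5 fell in both genotypes. It was at 45.3, 91.7, 53.5 and 41.1 CPM in E14 WT and at 26.9, 22.5, 40.7 and 19.1 CPM in P25 WT. The KO values were 45.8, 48.9, 50.1 and 44.8 CPM at E14 and 34.0, 24.4, 28.8 and 19.6 CPM at P25. The log2 fold changes were -1.08 and -0.83, with E14 WT replicate 2 well above the other libraries. Lrp6 was called higher in KO alone (0.69, edgeR adjusted p = 0.0447; lost under 8 of 24 alternatives), and stood at 0.11 in WT.

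The R-spondins divided into a pair that rose and a pair that fell. Rspo1 was at 2.29, 1.46, 0.569 and 1.71 CPM in E14 WT and at 12.8, 8.01, 10.6 and 11.2 CPM in P25 WT. Among KO ganglia it stood at 0.822, 1.26, 1.34 and 1.14 CPM at E14 and at 12.2, 8.66, 13.8 and 10.0 CPM at P25. The stages did not overlap, with log2 fold changes of 2.80 in WT (SE 0.31) and 3.28 in KO (SE 0.32).

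Rspo2, the R-spondin with the highest level per length in each group, was at 4.13, 2.99, 2.96 and 3.81 CPM in E14 WT and at 25.5, 25.3, 22.9 and 18.1 CPM in P25 WT. In KO it was at 5.31, 7.23, 6.35 and 4.29 CPM and then at 22.2, 20.6, 23.7 and 20.7 CPM. It rose by a log2 fold change of 2.72 in WT (SE 0.21) and 1.91 in KO (SE 0.20). The lower pair were rare transcripts that passed the filter through E14 alone, which builds a lower P25 value into their being tested. Rspo3 was at 1.15, 0.488, 1.25 and 1.14 CPM in E14 WT and at 0.443, 0.169, 0.108 and 0.0773 CPM in P25 WT. KO libraries held 0.190, 0.653, 0.408 and 1.05 CPM at E14 and 0.124, 0.0862, 0.137 and 0.238 CPM at P25, with overlap. The log2 fold changes were -2.33 and -1.96, and the KO call was lost without E14 KO replicate 4 (-1.47, edgeR adjusted p = 0.0709). With the compared groups alone, the filter left Rspo3 out in both genotypes. Rspo4 fell by 1.47 on the log2 scale in WT and by 2.07 in KO. The WT call was lost without any 1 of E14 WT replicates 1 and 2 and P25 WT replicates 2 and 4 (edgeR adjusted p up to 0.0732).

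Among the secreted inhibitors, Dkk3 rose most. Dkk3 is a divergent Dkk that is not a classical co-receptor blocker. It was at 7.52, 8.78, 6.77 and 7.89 CPM in E14 WT and at 70.9, 85.3, 84.6 and 81.2 CPM in P25 WT. The KO values were 4.23, 7.70, 5.01 and 6.76 CPM at E14 and 86.7, 93.9, 84.0 and 95.7 CPM at P25. The stages were wide apart, with log2 fold changes of 3.38 in WT (SE 0.19, edgeR adjusted p = 1.01e-11) and 3.92 in KO (SE 0.19, edgeR adjusted p = 1.93e-12).

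Dkk2 had the lowest log2 fold change of the inhibitors in both genotypes, and passed the filter through E14 alone, so a lower value at P25 was built into its being tested. It was at 3.53, 0.671, 3.18 and 5.56 CPM in E14 WT and at 0.322, 0, 0.287 and 0.0386 CPM in P25 WT. Among KO ganglia it stood at 0.758, 1.96, 2.91 and 1.81 CPM at E14 and at 0.823, 0.0431, 0.319 and 0.0794 CPM at P25. The WT stages did not overlap and the KO stages did, with log2 fold changes of -4.26 (SE 0.80) and -2.54 (SE 0.75).

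Sfrp2 was at 8.02, 6.16, 7.73 and 7.71 CPM in E14 WT and at 1.37, 0.590, 0.789 and 0.0386 CPM in P25 WT. In KO it was at 3.41, 4.11, 4.60 and 2.19 CPM and then at 0, 0.215, 2.56 and 0.198 CPM. P25 KO replicate 3 overlapped the E14 KO range. The log2 fold changes were -3.40 in WT and -2.29 in KO, and DESeq2 did not call the KO change (adjusted p = 0.0569). Sfrp1 fell by 1.51 on the log2 scale in WT and by 1.52 in KO, from means of 125 and 143 CPM.

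Sfrp5 was at 251, 330, 216 and 163 CPM in E14 WT and at 370, 258, 389 and 398 CPM in P25 WT. KO libraries held 295, 256, 303 and 245 CPM at E14 and 342, 309, 403 and 239 CPM at P25. The stages overlapped in both genotypes. It was called higher in WT (0.56, edgeR adjusted p = 0.0251) and not in KO (0.23, edgeR adjusted p = 0.338), and the WT call was lost under 4 of 24 alternatives. Sfrp4 was called lower in WT (-0.74) and the call was lost under 7 of 24.

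Inside the cell, Axin1, the scaffold of the destruction complex, fell in both genotypes. It was at 59.7, 95.5, 53.0 and 52.1 CPM in E14 WT and at 26.0, 27.4, 30.1 and 30.8 CPM in P25 WT. The KO values were 58.1, 52.0, 59.1 and 57.2 CPM at E14 and 30.0, 27.9, 33.0 and 25.3 CPM at P25. The stages did not overlap, with log2 fold changes of -1.19 and -0.96.

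Axin2 was at 6.74, 12.6, 6.43 and 7.05 CPM in E14 WT and at 10.5, 7.42, 13.6 and 6.99 CPM in P25 WT. Among KO ganglia it stood at 8.03, 7.47, 8.85 and 3.57 CPM at E14 and at 8.48, 6.94, 6.71 and 6.98 CPM at P25. The stages overlapped. The log2 fold change was 0.23 in WT (95% interval -0.37 to 0.83) and 0.06 in KO (-0.54 to 0.67).

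Lef1 was at 8.39, 12.1, 9.32 and 7.45 CPM in E14 WT and at 4.99, 4.47, 6.10 and 4.64 CPM in P25 WT. In KO it was at 8.41, 10.7, 10.7 and 7.67 CPM and then at 7.78, 5.52, 5.29 and 3.10 CPM. It fell by 0.88 on the log2 scale in WT, without overlap, and by 0.79 in KO, where 1 library overlapped. The KO call was lost without P25 KO replicate 4 (edgeR adjusted p = 0.0513). Tcf7 was called higher in KO alone (1.23, edgeR adjusted p = 0.00933), with 0.67 in WT.

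**Figure D3:**
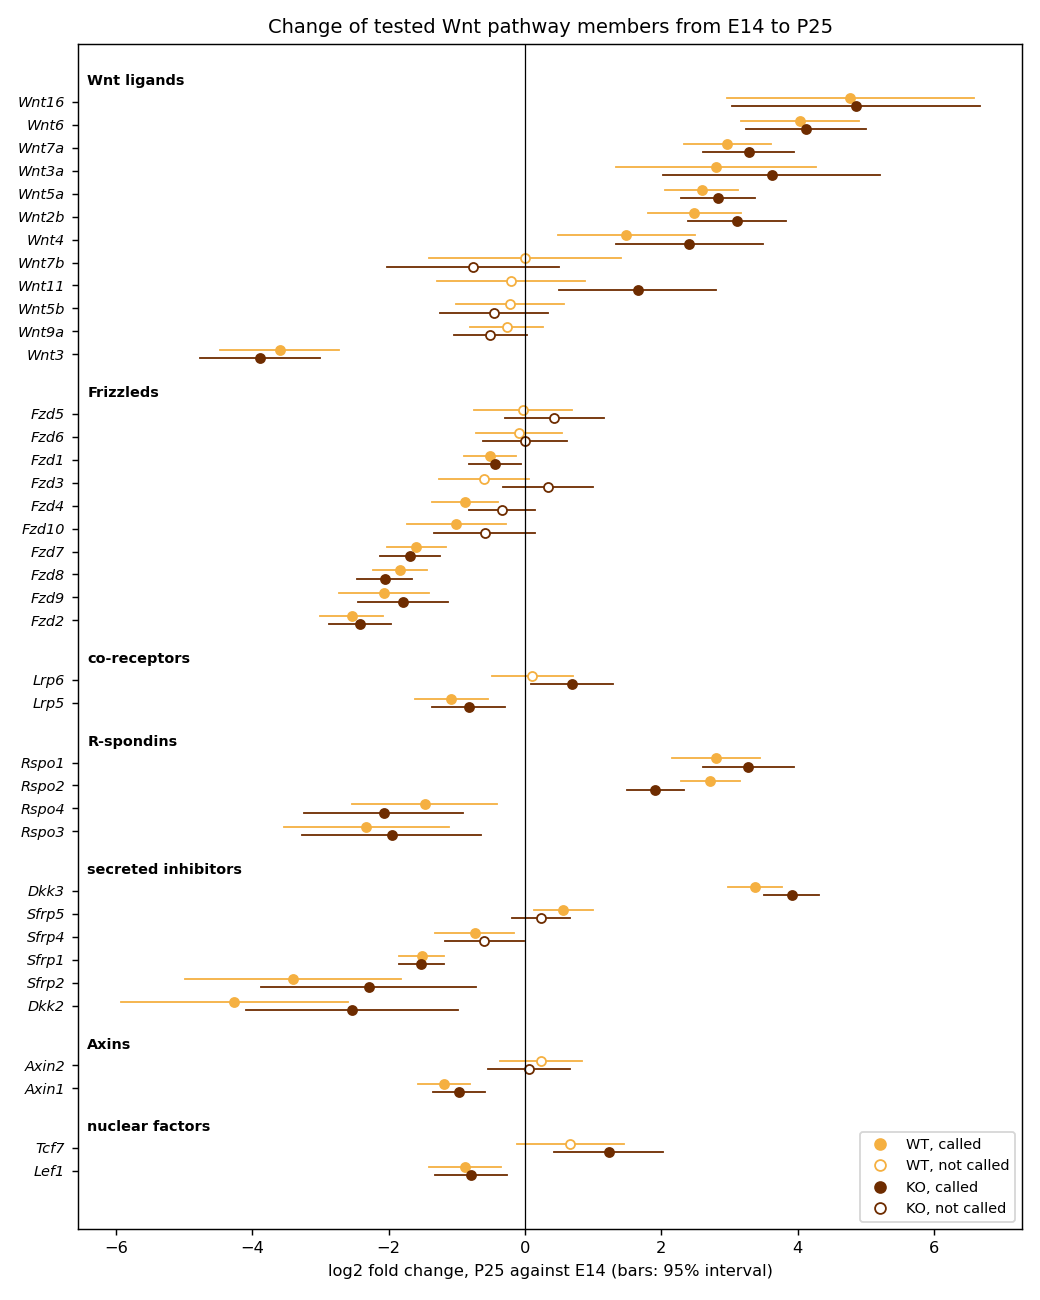
Log2 fold change of each of the 38 tested members from E14 to P25 in WT and KO, grouped by role, with 95% intervals; filled points were called at an edgeR adjusted p under 0.05. Most Wnt ligands lie right of 0, the called Frizzleds lie left of 0, and Rspo1 and Rspo2 lie opposite Rspo3 and Rspo4. Rspo3, Rspo4, Dkk2 and Wnt7b passed the low-count filter through E14 alone, and Wnt16 and Wnt3a through P25 alone. Being tested thus favoured a higher value at that stage. The values of Wnt16 rest on 1 count at E14.

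Other genes of the pathway were taken from lists after members were left out: 69 genes, of which 65 were tested. In WT 10 were higher at P25 and 40 lower, and in KO 10 and 34, against the 29.7% higher and 29.8% lower of all genes in WT. Without P25 WT replicate 1, the higher count in WT was 6. All 11 tested genes of the nuclear list (Tcf7l1 and Tcf7l2, proteins of the beta-catenin complex such as Bcl9, and the Tle co-repressors) fell in WT and 10 of 11 in KO; Tcf7l2 was not called in KO. Porcn and Wls, which lipidate and export Wnts, were not called. Lgr5, an R-spondin receptor, rose by a log2 fold change of 2.38 in WT (edgeR adjusted p = 7.26e-06), the secreted inhibitor Sostdc1 by 2.10 (edgeR adjusted p = 3.07e-08) and the feedback inhibitor Nkd1 by 1.83 (edgeR adjusted p = 5.03e-06). Dkkl1 fell by 4.43 on the log2 scale, the planar polarity gene Vangl2 by 3.59 and the Wnt-binding inhibitor Wif1 by 3.02. Of 16 often used target genes, members included, 12 were tested. In WT 4 rose (Nkd1, Lgr5, Ccnd1 and Tnfrsf19), 6 fell (Lef1, Znrf3, Myc, Apcdd1, Bambi and Nkd2), and Axin2 and Tcf7 were not called. In KO 4 rose (Nkd1, Lgr5, Ccnd1 and Tcf7), 4 fell (Lef1, Myc, Bambi and Nkd2) and 4 were not called (Axin2, Znrf3, Apcdd1 and Tnfrsf19).

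The second comparison asked whether loss of Nogo-A was accompanied by differences in these genes at either stage. By edgeR adjusted p, 0 of 38 members were called at E14 and 0 at P25, where 0.0199% and 0.0463% of all tested genes were. At an unadjusted p under 0.05 there were 2 members at E14 (Rspo2 and Dkk3) and 0 at P25, beside 4.86% and 1.87% of all genes. DESeq2 called 0 members at either stage, and 0.0328% and 0.102% of its genes. At E14, 27 of 38 log2 fold changes were negative, with a median of -0.24 beside -0.04 over all genes. Negative values made up 71.1% of the members and 56.3% of all genes. Without E14 WT replicate 2 these shares were 57.9% (22 of 38) and 50.2%, and the medians -0.07 and -0.0012. At P25 the median was 0.05 beside -0.02. None of the 65 other pathway genes was called by genotype at either stage.

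At E14 the KO and WT libraries did not overlap for 3 members, where 1.63% of all genes had no overlap. Rspo2, whose E14 values stand above, was higher in each KO library than in each WT library, 5.79 ± 1.28 CPM against 3.47 ± 0.59 (SD, n = 4). The log2 fold change was 0.73 (SE 0.20, 95% interval 0.31 to 1.16), with an unadjusted edgeR p of 0.00181 and an adjusted p of 0.806. Wnt3 was also higher in each KO library, 8.46 ± 0.60 CPM against 6.61 ± 0.88, at 0.36 on the log2 scale (edgeR adjusted p = 0.943). Sfrp2 was lower in each KO library, 3.58 ± 1.05 CPM against 7.41 ± 0.84, at -1.05 on the log2 scale (edgeR adjusted p = 0.942, SE 0.68). Over 24 alternatives, the log2 fold change of Rspo2 ran from 0.65 to 0.88 and its adjusted p was never under 0.237.

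The macrophage marker sum (9 genes, none at 0) also differed at E14, with 57.4 to 87.6 CPM in WT and 45.9 to 53.5 CPM in KO, and 8 of 9 markers were lower without any being called. The fibroblast sum overlapped, with 1014 to 1473 CPM in WT and 812 to 1197 CPM in KO. Cartilage and surface epithelium sums overlapped too. Their tested markers had median log2 fold changes of -0.70 (5 markers) and 1.08 (4 markers), with 0 called. The part of any of these marker differences in the values of Rspo2, Wnt3 and Sfrp2 was not tested. Dkk3 at E14 had a log2 fold change of -0.38 (edgeR adjusted p = 0.942) and overlapped between genotypes. Wnt7b was at 0.458, 0.366, 0.114 and 0.219 CPM in E14 WT and at 1.45, 0.513, 0.757 and 0.286 CPM in E14 KO. At P25 it was at 0.0805, 0.295, 0.359 and 0.425 CPM in WT and at 0.206, 0.302, 0.958 and 0.278 CPM in KO. Its E14 log2 fold change of 1.323 had a 95% interval of -0.02 to 2.67. Wnt7b passed the filter through 4 E14 libraries at the cutoff of 0.456 CPM, most of them KO. A higher E14 value in KO was thus partly built into its being tested.

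At P25 no member separated the genotypes without overlap, where 3.32% of all genes did. The lowest unadjusted p was that of Fzd8. It was at 18.3, 20.3, 20.9 and 16.8 CPM in P25 WT and at 16.3, 18.9, 14.6 and 10.8 CPM in P25 KO, after 65.6, 82.7, 71.8 and 53.0 CPM in E14 WT and 52.3, 73.3, 65.0 and 61.5 CPM in E14 KO. The groups overlapped at both stages, and the P25 log2 fold change was -0.33 (95% interval -0.72 to 0.06). Rspo4 was at 0.523, 0.253, 0.825 and 0.348 CPM in P25 WT and at 0.124, 0.302, 0.319 and 0.278 CPM in P25 KO, a log2 fold change of -0.93. At E14 it was at 1.70, 2.20, 0.739 and 0.876 CPM in WT and at 2.09, 0.607, 1.17 and 0.571 CPM in KO. Fzd3, a Frizzled of the planar polarity branch known for axon guidance, was at 24.2, 26.9, 28.5 and 16.6 CPM in P25 WT and at 35.0, 41.5, 27.1 and 31.5 CPM in P25 KO, a log2 fold change of 0.49. At E14 it was at 36.0, 14.3, 52.4 and 43.5 CPM in WT and at 18.4, 44.1, 22.3 and 22.0 CPM in KO. Rspo4 and Fzd3 also overlapped between genotypes at both stages.

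**Figure D4:**
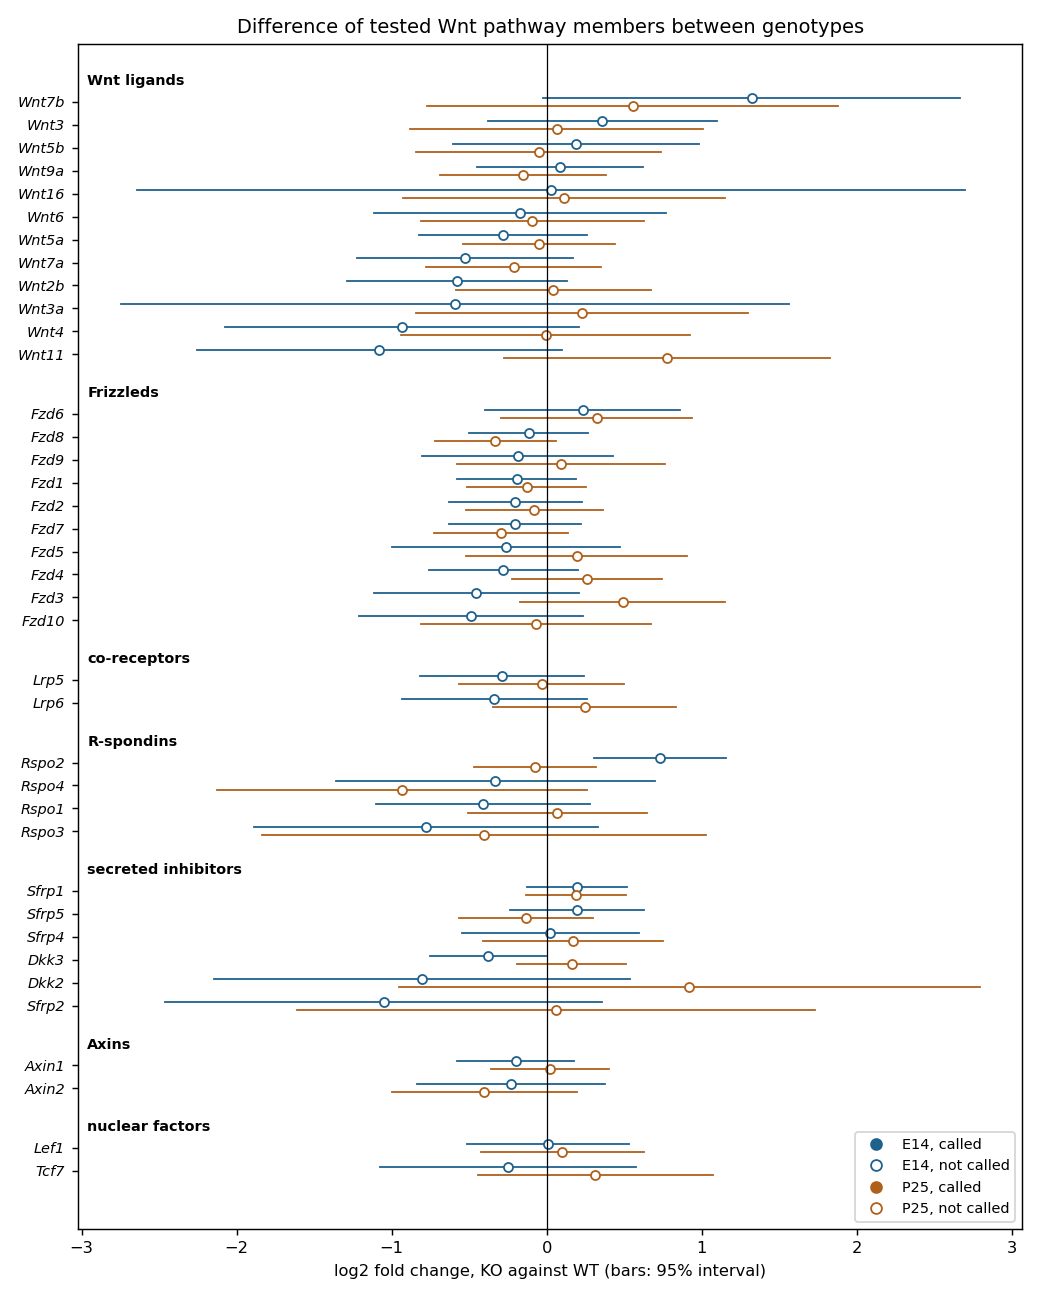
Log2 fold change of KO against WT for the 38 tested members at E14 and at P25, grouped by role, with 95% intervals. All points are open, since none was called, and Rspo2 at E14 (0.73) has its interval right of 0.

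The third comparison asked whether the change from E14 to P25 differed between the genotypes, by the interaction of stage and genotype. It called 0 of 38 members, and 0% of all genes were called. At an unadjusted p under 0.05 there were 4 members (Rspo2, Wnt11, Dkk3 and Fzd3), beside 4.28% of all genes, and DESeq2 called 0 members and 0.0396% of its genes. Rspo2 had the lowest unadjusted p, with an interaction of -0.81 on the log2 scale (95% interval -1.39 to -0.23, edgeR adjusted p = 0.993): it rose by 2.72 in WT and 1.91 in KO. The comparison of stages in KO and the comparison of genotypes at E14 share the E14 KO libraries. Some members were called by stage in 1 genotype alone (Sfrp5, Fzd4, Fzd10 and Sfrp4 in WT, and Lrp6, Tcf7 and Wnt11 in KO). Since the interaction called none of these, their stage changes were not shown to differ between the genotypes.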

How the data were processed

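Single ganglia gave stranded messenger RNA libraries, per the labels' protocols. Groups and replicate numbers came from the sample titles. The authors deposited expected counts (estimated counts) for each gene, rounded to whole numbers in the files. Fastp (0.20.0), kallisto (0.46), DESeq2 (1.32.0) and the build GRCm39 appear in the submitters' processing notes, without role or order. For the strand setting and transcript annotation, the source is the same: not given in the sources used here. An estimated count is modelled where reads fit several transcripts, which leaves close paralogs less certain.

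Totals ran from 15532373 to 29562379. A single edgeR model (4.0.16, under R 4.3.3) with TMM factors and the filterByExpr filter was fitted to the 16 libraries in 4 groups. Its quasi-likelihood p-values were adjusted over 15109 genes by Benjamini-Hochberg, with a threshold of 0.05. SE came from the F statistic. P-values measure the spread between ganglia. Levels are CPM on TMM-scaled totals, and CPM per kb uses the median length of protein-coding transcripts in GENCODE vM21. Positions are GRCm38, not the authors' build. Promoters came from RefSeq (GRCm38.p6), and 30 members matched.

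The members and gene lists were chosen with earlier results of these data known. Values in each library are given for the 5 largest WT stage changes each way at 1 CPM or more, the 3 lowest genotype p at each stage, and the highest member per length in each role. Axin2, and the members whose E14 genotypes did not overlap, were added after their values were seen. Alternatives were DESeq2 (1.42.0), RLE factors, unscaled totals, the low-count filter left out or made stricter (1 CPM in 4 libraries), a replicate block, E14 libraries of the same number summed, the compared groups alone, and each library left out. For the stage comparisons they were run on all tested members, a set widened after a first look at the results. Stage counts over the members that passed the filter through both stages were added after seeing the data. Figures used matplotlib 3.10.9.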

Additional observations from a re-analysis of the deposited data

Results flagged for a closer look

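The lone highest or lowest library of a group of 4 was compared with the rest of its group for 20 named members, 80 groups in all, and 7 were far from the other 3 by Dixon's criterion; chance gives about 1 in 20. Wnt6 was at 21.6 CPM in P25 WT replicate 4, with the others at 14.0 to 14.4 CPM, and at 11.7 CPM in P25 KO replicate 4, with the others at 15.9 to 16.6 CPM. Sfrp2 was at 6.16 CPM in E14 WT replicate 2 (others 7.71 to 8.02 CPM) and at 2.56 CPM in P25 KO replicate 3 (others 0 to 0.215 CPM). Rspo3 was at 0.488 CPM in E14 WT replicate 2 (others 1.14 to 1.25 CPM). Wnt7b was at 0.958 CPM in P25 KO replicate 3 (others 0.206 to 0.302 CPM). Fzd3 was at 44.1 CPM in E14 KO replicate 2, with the others at 18.4 to 22.3 CPM.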

How the results depend on the processing

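The counts of called members kept within 1.5 times of their values under each alternative run: 8 to 12 higher and 14 to 18 lower in WT, 11 to 14 higher and 11 to 15 lower in KO, and 0 by genotype and interaction. Of the counts of other pathway genes, the WT higher count ran from 6 to 11 over 24 alternatives, with 6 without P25 WT replicate 1. Libraries of different groups with the same replicate number did not deviate together from their group means (correlations from -0.392 to 0.216). Replicate numbers were therefore not taken to pair samples. With a replicate block the WT stage comparison still called 11 members higher and 17 lower. The possible right and left pairs at E14 had correlations of -0.789 (WT replicates 2 and 4) and -0.354 (KO replicates 1 and 3). Deviations from the mean of the same group sum to 0, which pushes correlations within a group below 0. These values therefore cannot show whether a pair shared an animal, and are not comparable with those between groups. Whether each pair came from 1 animal was not tested. Single-gene values (38 members by stage and 8 by genotype) stayed on their side of 0 and of the threshold in 1898 fits, lost a call in 53 and gained one in 6.

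Direction turned in 37 fits, all of members not called there and not called in the reported fit; the cause was not tested. Fzd5 in WT turned to 0.0138 with DESeq2, 0.013 with RLE scaling, 0.0487 with no filter, 0.025 with the stricter filter and 0.09 with summed E14 libraries. With library totals alone, Lrp6 in WT turned to -0.02, Wnt7b in WT to -0.0663 and Fzd6 in KO to -0.0382. With summed E14 libraries, Wnt11 in WT turned to 0.0239. The fits without 1 library ran, in WT, from -0.1967 to 0.2054 for Fzd5, -0.2555 to 0.1633 for Fzd6, -0.1205 to 0.3666 for Lrp6, -0.5464 to 0.4044 for Wnt11, -0.2999 to 0.0702 for Wnt5b, -0.2319 to 0.3943 for Wnt7b and -0.3533 to 0.061 for Wnt9a. In KO they ran from -0.1304 to 0.2326 for Axin2 and from -0.1175 to 0.1994 for Fzd6.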
